A study of Xenopus laevis with 27 samples.

Results

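Gene expression in the brain of adult Xenopus laevis frogs was compared between 3 libraries from animals that had worn a progesterone device and 3 libraries from animals that had worn the silk device alone. These 6 libraries, of 27 in the series, were chosen by their labels (brain tissue, with progesterone or silk treatment), and every difference is progesterone minus silk. The series concerns amputation of the hindlimb, after which a wearable bioreactor delivers progesterone locally for a short time. The silk group is the sham, in which the silk material is worn without the hormone, and a group without a device was also sampled. Blastema, stump and brain were each sequenced with 3 libraries per treatment. By the series' title all groups share the hindlimb injury, so the comparison asks how a limb treatment with the hormone differs, in a distant organ, from the carrier alone. The labels give no dose, no time of sampling, no age, no sex and no brain region, and they do not say which frog gave which tissue or whether the libraries came from separate animals. The p-values therefore measure the spread between these samples, which may be technical.

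Progesterone is a steroid that crosses into the brain. It binds the nuclear progesterone receptor (pgr), a ligand-activated transcription factor, and membrane proteins of the PAQR and PGRMC families. It also binds the mineralocorticoid receptor (nr3c2) and, at high levels, the glucocorticoid receptor (nr3c1). In vertebrate brains it can be reduced to neurosteroids that enhance GABA-A receptors, and in rodents it acts on myelin and on reproductive behaviour. X. laevis has an ancient duplicated genome, so many genes occur as a pair of copies, marked .L and .S.

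The libraries differed in ways that touch every result. The estimated depth, in reads assigned to genes, was 2053232, 1602260 and 1910595 in progesterone libraries 1 to 3, and 623389, 787742 and 1824699 in silk libraries 1 to 3. In a gene of 1 kb, 1 read was thus worth 0.487 to 0.624 FPKM (fragments scaled by gene length and library size) with progesterone but 1.60 and 1.27 FPKM in silk 1 and silk 2. Reads of smad4.1.S, a gene model whose namesake carries TGF-beta and BMP signals to the nucleus, made up 11.4% and 10.1% of the reads of silk 1 and silk 2, 0.751% in silk 3, and 0.615%, 0.555% and 0.601% in the progesterone libraries. Without a device they made up 0.0514% to 0.0990%. Every silk library lay above every progesterone library, with a difference of means of −6.84 percentage points (exact permutation test, two-sided, p = 0.1, the smallest that 3 against 3 allows). The library labelled silk 3 was nearly identical to 2 brain libraries without a device, from which it differed at 0.305% and 0.308% of genes, whereas the other pairs that involve a silk library differed at 2.74% to 10.2%. The calls and the counts over all genes are therefore given with and without it, as are the counts of several lists. The neuron markers were present in all 6 libraries, with a summed level of 4124 to 5169 FPKM per library. Of their 44 gene copies, 43 reached 1 FPKM in at least 1 of the 6.

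**Figure D1:**
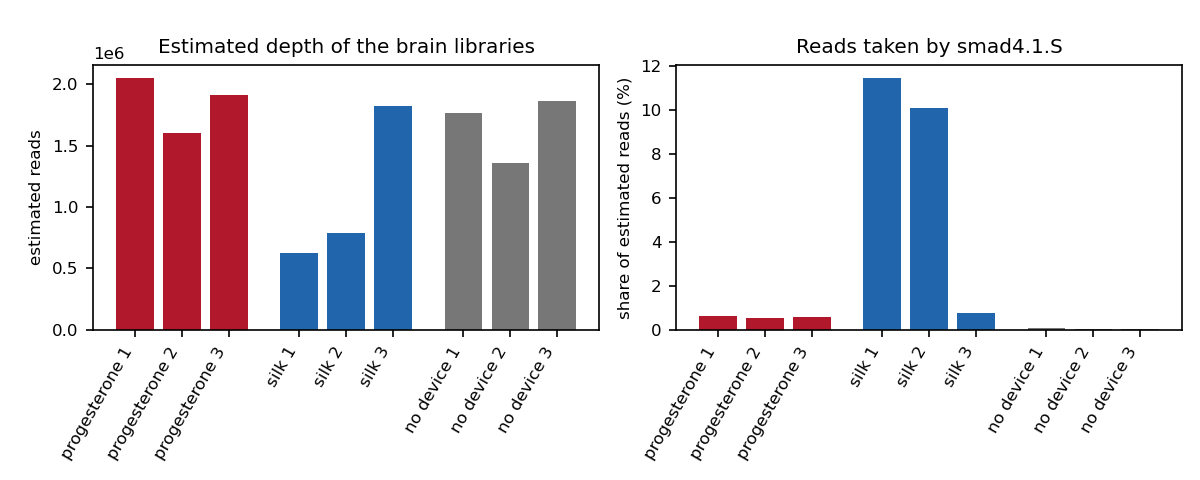
Estimated reads (left) and share of those reads taken by smad4.1.S in percent (right) for each brain library, 1 bar per library, with progesterone in red, silk in blue and no device in grey. Silk 1 and silk 2 are the shallowest libraries, at 623389 and 787742 reads, and carry the highest smad4.1.S shares, at 11.4% and 10.1%.

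Few genes separated the groups past the threshold. With limma on log2(FPKM + 1), 6 of 27157 tested genes (0.0221%) passed a Benjamini-Hochberg adjusted p of 0.05, of which 4 (0.0147%) were higher and 2 (0.00736%) lower with progesterone. None of the 6 has a gene symbol, 3 were listed at 0 in all silk libraries, and 2 were listed at 0 in all progesterone libraries. Without silk 3, 72 of 26642 genes passed (0.27%), 65 higher (0.244%) and 7 lower (0.0263%), and 54 of the 72 were listed at 0 in both remaining silk libraries. With silk 1 or silk 2 also left out, the silk arm is 1 library, assumed to vary like the other groups, and the count was 0 or 154. It was 23, 1 and 7 when progesterone 1, 2 or 3 was left out instead. With all libraries it was 0 after leaving out progesterone 1, progesterone 2, silk 1 or silk 2, and 5 after leaving out progesterone 3.

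Below the threshold, more genes leaned toward progesterone than toward silk. At an unadjusted p under 0.05, 1698 genes (6.25%) were higher and 456 (1.68%) lower, and 2662 genes (9.8%) lay higher in every progesterone library than in every silk library against 867 (3.19%) that lay lower. The median difference over all tested genes was 0.12. This lean was smaller but remained after median-of-ratios scaling. The median was then 0.03 and the split 1285 (4.76%) against 716 (2.65%), so the higher genes made up 64.2% rather than 78.8%. Without silk 3 the median was 0.17 and the split 2666 (10%) against 597 (2.24%), and after that scaling 0.04 and 1765 (6.67%) against 1017 (3.84%). List medians are therefore set beside the median of all genes. List counts are to be read beside 6.25% higher and 1.68% lower of all genes, or 10% and 2.24% without silk 3. After median-of-ratios scaling the medians of GABA, glutamate receptor, neuron and respiratory chain genes were −0.05, −0.09, −0.06 and −0.05. Rescaled without the smad4.1.S reads, the split was 1302 against 709 of 27244 tested genes, with a median of 0.04. Without silk 3 it was then 1812 against 1005 of 26740, also with a median of 0.04. The part of depth in these splits was not tested.

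The named genes that were higher with progesterone include genes of plasma and matrix proteins. With all libraries no gene with a symbol passed the threshold, so the naming rule picked genes whose groups do not overlap. That order is therefore set by the choice and is not a finding. Transferrin (tf.S), the iron carrier of plasma, stood at 314, 228 and 262 FPKM in progesterone libraries 1 to 3 and at 74.8, 75.6 and 98.8 in silk libraries 1 to 3. The groups did not overlap, and the difference was 1.68 ± 0.26 (log2 scale with standard error, limma adjusted p = 0.171, 3 of 3 libraries above all silk libraries). The protease inhibitor alpha-2-macroglobulin (a2m.S), another plasma protein, was at 10.7, 9.27 and 10.7 and at 4.12, 3.53 and 4.27 FPKM, a difference of 1.17 ± 0.17 (adjusted p = 0.155). The libraries without a device were at 107, 184 and 109 FPKM for tf.S and 5.95, 6.48 and 4.98 for a2m.S, between the device groups.

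Collagen and proteoglycan genes of this set had the same order, as the naming rule requires. The collagen VI chain gene col6a1.L was at 7.98, 11.6 and 11.1 FPKM with progesterone against 1.27, 2.18 and 3.35 with silk (1.82 ± 0.29, adjusted p = 0.174). Biglycan (bgn), a small proteoglycan that binds collagen, was at 12.4, 14.1 and 14.2 and 3.31, 3.51 and 5.96 FPKM (1.50 ± 0.24, adjusted p = 0.174), and without silk 3 it rose past the threshold (1.72 ± 0.20, adjusted p = 0.0410, 3 of 3 libraries higher). For both genes the lowest progesterone library was above the highest silk library, and silk 3 was the highest of the silk libraries. The collagen-binding protein gene aebp1.L differed by 1.39 ± 0.22, the scavenger receptor gene colec12.L by 1.63 ± 0.29, and the secreted glycoprotein gene fstl1.L by 1.40 ± 0.25, with adjusted p of 0.174, 0.228 and 0.231 and no overlap between groups.

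Membrane transport genes were also in this set. The plasma membrane calcium pump gene atp2b1.L was at 25.7, 40.7 and 34.1 FPKM with progesterone against 10.8, 8.62 and 8.84 with silk, and every silk library was below every progesterone library (1.71 ± 0.23, adjusted p = 0.111). A second gene model of that symbol was also apart, at 22.1, 24.7 and 12.7 FPKM against 0, 12.2 and 10.03. The GABA and taurine transporter gene slc6a13.L, which in mammals is expressed in the leptomeninges, was at 38.9, 27.7 and 35.7 and 7.11, 12.4 and 13.8 FPKM (1.57 ± 0.30, adjusted p = 0.260), and the authors' deposited table gives it a q-value of 0.0294. The phospholipid synthesis gene ept1.L differed by 1.08 ± 0.21 (adjusted p = 0.264). The gene model mgu6-77, named for a guide RNA of U6 methylation, was at 21.9, 28.1 and 23.5 FPKM with progesterone and listed at 0 in all silk libraries, and 3.9 estimated reads lay behind each progesterone value.

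**Figure D2:**
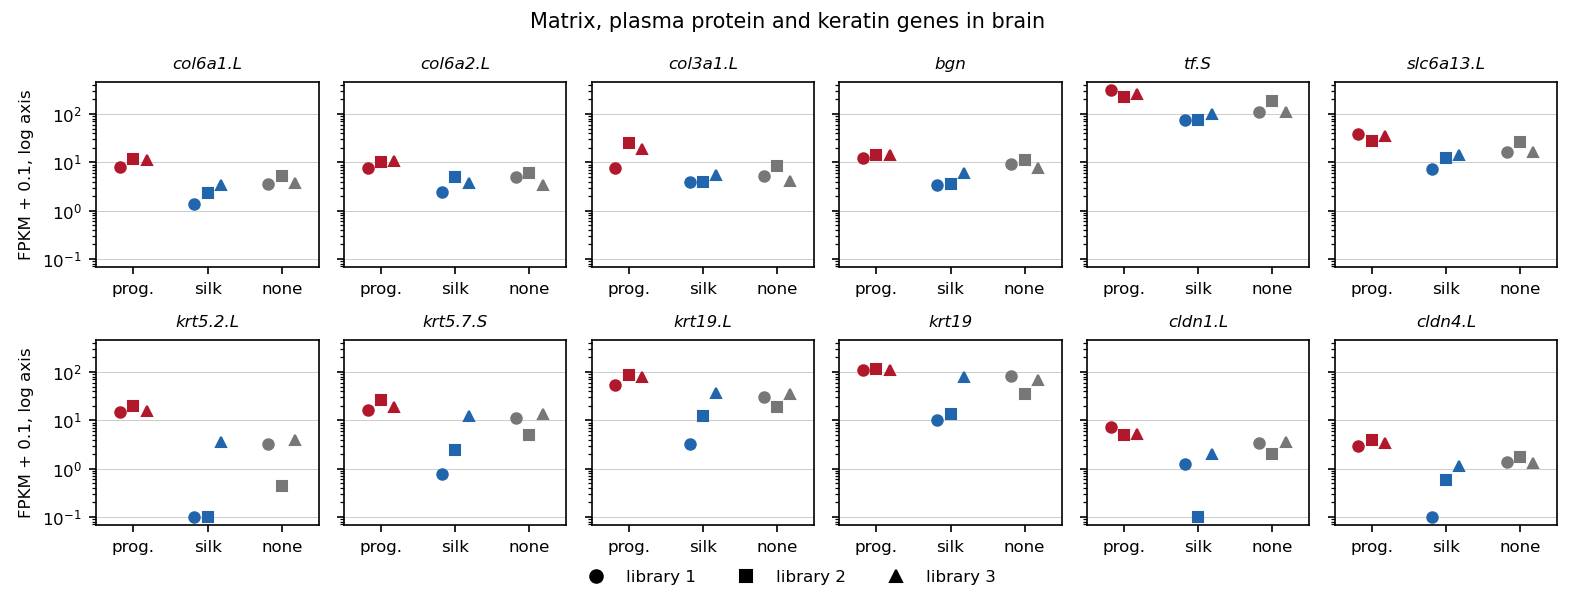
FPKM + 0.1 on a log axis for 12 genes in the progesterone (prog., red), silk (blue) and no-device (none, grey) brain libraries, 1 point per library with the library number given by the symbol. In all 12 panels the 3 progesterone libraries lie above the 3 silk libraries, and for the keratin genes in the lower row silk 3 lies nearer to the progesterone libraries than silk 1 and silk 2 do.

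The markers of meninges and fibroblasts, the cells that make the connective sheath of the brain, stood well above the background of all genes. Of 37 tested copies, 17 were higher at an unadjusted p under 0.05 and 0 lower, beside 6.25% and 1.68% of all tested genes, and 19 were higher in every progesterone library than in every silk library, beside 9.8% of all genes. Their median difference was 0.74 against 0.12 over all genes, and 0.70 against 0.17 without silk 3. None of the 37 passed the adjusted threshold. The fibrillar collagen gene col3a1.L was at 7.64, 25.4 and 18.4 FPKM with progesterone against 3.83, 3.83 and 5.39 with silk, and col6a2.L at 7.64, 10.2 and 10.4 and 2.32, 4.91 and 3.56. For col3a1.L progesterone 2 and 3 were far above progesterone 1, which itself was above all silk libraries.

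Other members followed. The differences were 1.21 ± 0.27 for col6a2.L, 1.63 ± 0.42 for col3a1.L, 1.24 ± 0.28 for col5a1.S and 1.25 ± 0.35 for col1a2.L, which encodes a collagen I chain, with adjusted p of 0.337, 0.422, 0.349 and 0.470. The matrix glycoprotein gene fbln1.L was at 10.4, 24.9 and 18.02 FPKM against 4.57, 7.67 and 9.25. The transcription factor gene foxc2.L, of a family needed for meningeal development in mice, was at 1.25, 2.90 and 3.72 FPKM and listed at 0 in silk 1 and silk 2, with 0.97 in silk 3. Not all members were higher: pdgfra.L and dcn.L, a receptor and a proteoglycan of fibroblasts, overlapped between groups, at 6.28, 7.91 and 7.18 against 7.48, 6.48 and 7.90 and 1.70, 3.70 and 3.10 against 1.65, 1.75 and 2.30 FPKM. In these bulk samples, fewer cells of a type and less RNA per cell cannot be told apart.

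The summed level of the meninges and fibroblast markers was 203, 3506 and 2230 FPKM with progesterone against 144, 172 and 284 with silk, and 0 of 43 copies were at 0 in all 6 libraries. Most of the sum in progesterone 2 and 3 came from 1 member, the prostaglandin D synthase gene ptgds.L. Without it the sums were 188, 355 and 295 with progesterone and 130, 150 and 153 with silk. In the libraries without a device they were 162, 232 and 169, a range that holds progesterone 1. The median log2(FPKM + 1) of tested members was 1.98, 2.87 and 2.58 with progesterone and 1.67, 1.83 and 1.92 with silk. The libraries without a device were at 2.11, 2.40 and 2.10, above progesterone 1. Without progesterone 1, 2 or 3 the median difference of the list was 0.90, 0.52 and 0.67. With median-of-ratios scaling it was 0.63.

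Epithelial genes formed the second group that was higher with progesterone. Of 25 tested copies of the epidermis and keratin list, 11 were higher at an unadjusted p under 0.05 and 0 lower, beside 6.25% and 1.68% of all genes. In 10 all progesterone libraries were above all silk libraries, beside 9.8% of all genes. The median difference was 0.86, or 1.21 without silk 3. Without that library 15 were higher, beside 10% of all genes, and 14 lay wholly above silk, beside 23%. The type II keratin gene krt5.2.L was at 14.8, 20.1 and 15.8 FPKM with progesterone, at 0 in silk 1 and silk 2, and at 3.38 in silk 3. It rested on 64.9 to 69.6 estimated reads in the progesterone libraries and on 13.3 in silk 3. Its difference was 3.44 ± 0.66 (adjusted p = 0.260) and 4.15 ± 0.49 without silk 3, where it rose past the threshold (adjusted p = 0.0410, 3 of 3 libraries higher). The authors' deposited table gives it a q-value of 0.0222.

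Silk 3 often stood apart from silk 1 and silk 2 in this list. The simple epithelial keratin gene krt19 was at 109, 114 and 110.3 FPKM with progesterone against 9.83, 13.7 and 80.4 with silk, and its libraries without a device were at 81.3, 34.3 and 68.7. The difference was 2.26 ± 0.71 (adjusted p = 0.529), and 3.15 ± 0.35 without silk 3 (adjusted p = 0.0376). The copies krt19.L, krt5.7.S and krt8.L had the same pattern, with differences of 2.50 ± 0.72, 2.32 ± 0.71 and 1.14 ± 0.33. The tight junction genes cldn1.L and cldn4.L were at 7.09, 4.96 and 5.23 and 2.79, 3.83 and 3.22 FPKM with progesterone and at 1.17, 0 and 1.95 and 0, 0.470 and 1.03 with silk. Their differences were 1.85 ± 0.40 and 1.56 ± 0.28 (adjusted p = 0.333 and 0.231).

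Some genes of stratified epidermis, chosen after their values were seen, were hardly present. The basal regulator tp63.L and the basal keratin krt14.L reached at most 0.170 and 0.300 FPKM in any of the 6 libraries, and the hemidesmosome collagens col17a1.L and col17a1.S 0.380 and 0.240. Other members were present: 32 of the 54 copies of the list reached 1 FPKM in at least 1 of the 6 libraries, among them krt5.2.L. The summed level of the list was 364, 456 and 426 FPKM with progesterone, 86.2, 136 and 285 with silk and 196 to 286 without a device. Only the 2 shallow silk libraries were below the range without a device. The part of their depth in this difference was not tested.

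Leaving out silk 3 brought other named genes past the threshold. The interferon-induced membrane protein gene ifitm1.S rose, at 7.37, 10.1 and 11.1 FPKM with progesterone and 0 in silk 1 and silk 2 (3.37 ± 0.22, adjusted p = 0.0106), and silk 3 was at 3.32. The retinoic acid carrier gene crabp2.S rose, at 16.4, 17.4 and 12.2 against 1.29 and 1.03 FPKM (2.91 ± 0.23, adjusted p = 0.0178), and silk 3 was at 6.23. For these 2 genes progesterone was also above silk 3, so the groups did not overlap, and their differences with all libraries were 2.67 ± 0.54 and 2.32 ± 0.47 (adjusted p = 0.291 and 0.285).

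For a pair of others the order rested on the choice of silk libraries. The mitochondrial ribosomal protein gene mrpl4.L rose without silk 3 (3.21 ± 0.29, adjusted p = 0.0236), yet silk 3 was at 15.9 FPKM, above all progesterone libraries (8.47, 10.8 and 6.06). These values rest on 2.9, 2.9 and 2.0 estimated reads with progesterone and 4.9 in silk 3. A second gene model named mrpl4.L was at 9.72, 9.12 and 4.87 FPKM against 4.19, 3.33 and 10.2, which overlap. The butyrophilin-like gene btnl8.L rose in the same fit (2.15 ± 0.25, adjusted p = 0.0410), with silk 3 at 22.03 FPKM, inside the progesterone range of 19.4 to 24.4. Without silk 3 and silk 1 no gene was called, but the silk arm is then 1 library whose spread is taken from the other groups.

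The 2 named genes that were lower with progesterone than with silk past the threshold without silk 3 were abundant in silk 1 and silk 2. The gene smad4.1.S was at 1254, 1133 and 1225 FPKM with progesterone against 23426, 20649.6 and 1531 with silk (−4.19 ± 0.23, adjusted p = 0.00953, 3 of 3 libraries lower). The gene ccdc50.L, for a ubiquitin-binding signalling adaptor in mammals, was at 3355, 2236 and 2549.9 and 23643, 22796 and 4092 FPKM (−3.12 ± 0.25, adjusted p = 0.0178). With silk 3 in the fit the differences were −2.91 ± 0.95 and −2.28 ± 0.64 (adjusted p = 0.540 and 0.473). Silk 3 was close to the progesterone libraries for both genes and far from silk 1 and silk 2. The libraries without a device were at 202, 105 and 108 FPKM for smad4.1.S and 1689, 1200 and 1444 for ccdc50.L, below all progesterone libraries. High shares of smad4.1.S were not limited to silk. In the limb libraries they ran from 0.956% to 26.4% of estimated reads with progesterone and from 0.721% to 39.5% with silk. The highest share with progesterone was in blastema progesterone 2, the shallowest limb library at 172979 reads, where ccdc50.L took 2.95%. The part of depth in these shares was not tested. A second gene model named ccdc50.L was scarce, at 3.63, 7.97 and 4.97 FPKM with progesterone against 5.04, 4.0 and 7.61 with silk.

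The named genes that were lower with progesterone had varied roles. The mitochondrial calcium uniporter gene mcu.S was at 3.69, 2.92 and 2.89 FPKM with progesterone against 10.97, 7.63 and 7.98 with silk (−1.23 ± 0.20, adjusted p = 0.184). The ribosomal protein gene rpl35a.L was at 31.1, 55.5 and 93.6 and 238, 231 and 302 FPKM (−2.20 ± 0.38, adjusted p = 0.221). For both, all progesterone libraries were below all silk libraries. Without a device mcu.S was at 2.16, 3.82 and 4.22 FPKM, near the progesterone values, and rpl35a.L at 223, 138 and 159, nearer to silk. A second gene model named rpl35a.L overlapped between groups, at 125, 73.5 and 172 FPKM against 165, 119.8 and 88.9.

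The other genes of this set had the same order of the groups, as the naming rule requires. The Sm core protein gene snrpd3.S, of the spliceosome, was at 12.7, 5.53 and 5.15 FPKM against 24.3, 23.8 and 20.8 (−1.55 ± 0.32, adjusted p = 0.299). The NEDD8-activating enzyme gene uba3.L was at 6.78, 7.81 and 7.67 FPKM against 21.6, 30.3 and 13.6 (−1.37 ± 0.29, adjusted p = 0.322). The microtubule-destabilising stathmin gene stmn1.L, of neurons, was at 10.2, 7.24 and 8.55 against 17.8, 13.98 and 20.7 FPKM (−0.93 ± 0.21, adjusted p = 0.352). Beside these were phf5a.L (a splicing factor subunit), nhp2.S (a snoRNP protein), rpp30.L (a subunit of RNase P) and hat1.S (a histone acetyltransferase). Also in the set were dnajc24.S (a co-chaperone), smim20.L (a small mitochondrial protein) and timm13.L (a chaperone of mitochondrial import). Differences of these genes ran from −1.74 ± 0.38 for dnajc24.S to −0.81 ± 0.20 for hat1.S, and none passed the adjusted threshold. Several genes of the set rest on few reads. A minimum mean of 10 estimated reads removes mcu.S, smim20.L, snrpd3.S, dnajc24.S, nhp2.S, phf5a.L and timm13.L. For dnajc24.S there were 1, 2.9 and 4.9 estimated reads with progesterone against 3.9, 4.8 and 10.8 with silk.

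The list of receptors through which progesterone acts had a median near that of all genes. Of 23 tested copies of steroid receptor genes, 1 was higher and 1 lower at an unadjusted p under 0.05, beside 6.25% and 1.68% of all genes. None passed the adjusted threshold. Without overlap between groups, 4 were higher and 1 lower, beside 9.8% and 3.19% of all genes. The median difference was 0.11, beside 0.12 over all genes. Without silk 3, 2 were higher and 1 lower, beside 10% and 2.24%, with a median of 0.21 beside 0.17. In that fit 7 lay wholly above silk and 2 wholly below, beside 23% and 6.74% of all genes. The nuclear progesterone receptor was scarcely detected: pgr.L was at 0.420, 0.540 and 0.570 FPKM with progesterone against 1.03, 0.270 and 0.120 with silk, and pgr.S was at 0.28 FPKM in progesterone 1 and listed at 0 in the other 5. Neither copy passed the filter for testing.

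Membrane and corticosteroid receptors were present at higher levels. The membrane component gene pgrmc1.L was at 35.5, 38.2 and 43.4 FPKM with progesterone against 23.5, 39.2 and 50.1 with silk, and pgrmc2.L at 6.36, 6.51 and 5.26 and 6.43, 5.23 and 4.88. Both overlapped between groups, with 95% intervals of the difference from −0.56 to 0.78 and from −0.30 to 0.53. The membrane progestin receptor gene paqr8.S was at 12.5, 14.8 and 14.3 against 6.23, 7.38 and 14.8 FPKM, with silk 3 level with the highest progesterone library, and paqr6.S at 23.97, 23.2 and 22.1 against 17.7, 10.8 and 20.1, without overlap (0.53 ± 0.24, adjusted p = 0.647).

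The glucocorticoid receptor copy nr3c1.S was at 12.6, 10.8 and 11.8 FPKM with progesterone against 8.10, 8.95 and 7.41 with silk, without overlap (0.48 ± 0.17, adjusted p = 0.569). Its partner nr3c1.L overlapped between groups, at 10.8, 12.7 and 12.1 and 13.2, 11.5 and 11.5 FPKM. The mineralocorticoid receptor copy nr3c2.L was at 10.7, 11.7 and 10.9 against 8.44, 8.94 and 8.85 FPKM (0.31 ± 0.16, adjusted p = 0.675), whereas nr3c2.S overlapped at 9.96, 17.8 and 12.1 against 14.97, 14.3 and 17.6. The membrane oestrogen receptor gene gper1.L was the lower member, at 0.550, 0.390 and 0.160 FPKM against 1.77, 2.10 and 1.23 (−0.98 ± 0.21, adjusted p = 0.312), low levels that in no library exceeded 2.10 FPKM. It rested on only 2.3, 1.3 and 0.6 estimated reads with progesterone and 2.3, 3.4 and 4.7 with silk.

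**Figure D3:**
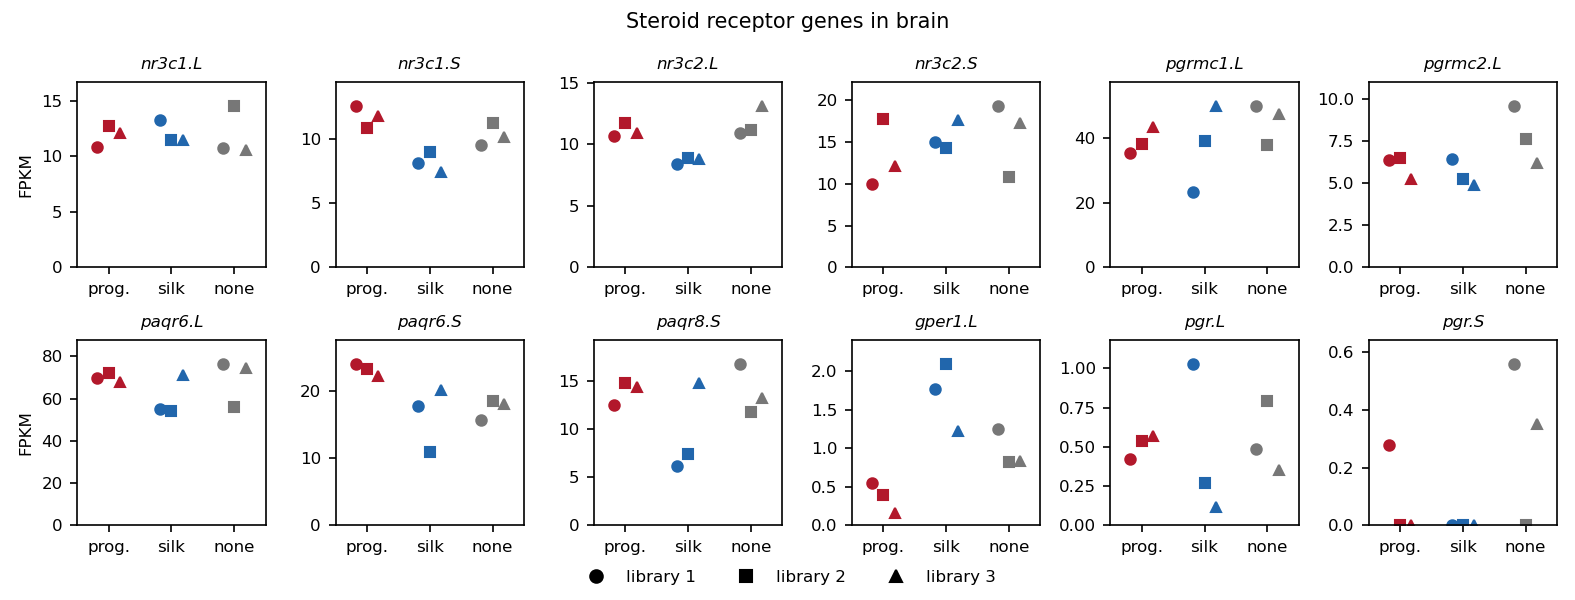
FPKM of 12 steroid receptor gene copies in the progesterone (prog., red), silk (blue) and no-device (none, grey) brain libraries, 1 point per library, each axis starting at 0. The progesterone and silk points overlap for nr3c1.L, nr3c2.S, pgrmc1.L and pgrmc2.L and are apart for nr3c1.S, nr3c2.L, paqr6.S and gper1.L, and pgr.L and pgr.S do not exceed 1.03 FPKM in any brain library shown.

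Counts of genes downstream of steroid receptors depended on silk 3. Of 36 tested copies of corticosteroid and progestin responsive genes, 2 were higher at an unadjusted p under 0.05 and 0 lower, with a median difference of 0.16. Without silk 3 it was 7 of 34, beside 10% of all genes, with a median of 0.36 beside 0.17, and 0 passed the adjusted threshold in either fit. The transcription factor gene cebpd.L was at 6.22, 4.50 and 4.51 FPKM with progesterone against 2.62, 3.29 and 2.93 with silk (0.61 ± 0.20, adjusted p = 0.535), and the NF-kappaB inhibitor gene nfkbia.L at 12.2, 12.3 and 14.1 and 9.32, 9.88 and 8.66 (0.43 ± 0.16, adjusted p = 0.596). Both were apart between groups by less than 1 on the log2 scale. The phosphatase gene dusp1.L was at 8.91, 10.6 and 9.81 against 2.46, 6.35 and 8.53 FPKM, also without overlap. Receptor chaperones and coregulators had a median of 0.17, with 1 of 28 copies higher and 0 lower.

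Of 24 tested copies for steroid and neurosteroid synthesis, 1 was higher and 3 lower, beside 6.25% and 1.68% of all genes, with a median of 0.00. Without silk 3 there were 1 and 4, beside 10% and 2.24%. The mitochondrial steroid dehydrogenase gene hsd17b10.L was at 13.1, 6.56 and 8.91 FPKM with progesterone against 23.97, 17.8 and 18.4 with silk (−1.03 ± 0.27, adjusted p = 0.434), whereas a second gene model of that symbol overlapped between groups, at 13.45, 2.87 and 4.81 against 0, 34.6 and 15.2. The reductase gene srd5a3.L differed by −0.79 ± 0.25 and the ferredoxin gene fdx1.L, which carries electrons to mitochondrial P450 enzymes, by −0.55 ± 0.20. All 3 were lower in every progesterone library than in every silk library. For srd5a3.L this order rested on 3.4, 2.3 and 5.7 estimated reads with progesterone and 2.3, 4.5 and 6.9 with silk. The aldo-keto reductase gene akr1c2.S was at 1.77, 2.83 and 3.06 against 0, 1.14 and 1.88 FPKM, which overlap. Cholesterol synthesis genes had a median of −0.07, with 0 of 40 copies past an unadjusted p of 0.05 in either direction.

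Of the neurotransmitter lists, those of GABA, glutamate receptor and excitability channel genes had counts below the background. For GABA genes 0 of 21 copies, for glutamate receptor genes 1 of 37, and for excitability channels 0 of 44 were past an unadjusted p of 0.05, with medians of 0.04, 0.00 and 0.12. The glutamate scaffold gene shank3.S was the 1 member, at 12.5, 12.7 and 11.5 FPKM against 8.78, 7.64 and 8.74 (0.50 ± 0.17, adjusted p = 0.559). Among 59 monoamine and acetylcholine copies, 2 were higher and 3 lower, beside 6.25% and 1.68% of all genes, and without silk 3 there were 7 and 5 of 58, beside 10% and 2.24%. The serotonin receptor gene htr2a.S differed by 0.68 ± 0.25, the muscarinic receptor gene chrm4.L by 0.78 ± 0.27 and the dopamine transporter gene slc6a3.S by −0.89 ± 0.31, all without overlap (adjusted p = 0.587, 0.564 and 0.564). The neuron median was 0.05, with 0 of 43 markers past an unadjusted p of 0.05.

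Among 55 neuropeptide copies, 1 was higher and 3 lower, beside 6.25% and 1.68% of all genes, with a median of −0.04. Without silk 3, 2 of 54 were higher and 3 lower, beside 10% and 2.24%. The neurotensin gene nts.L was at 15.6, 21.5 and 18.9 FPKM with progesterone against 46.98, 37.3 and 23.8 with silk (−0.87 ± 0.28, adjusted p = 0.533), and the gene cartpt.S, for a peptide that restrains feeding in mammals, at 7.56, 7.31 and 7.78 against 14.7, 12.6 and 9.31 (−0.61 ± 0.20, adjusted p = 0.555). Both were lower in all progesterone libraries, with silk 3 the lowest silk library. The prohormone convertase gene pcsk2.L was at 59.03, 266 and 171 FPKM against 53.3, 50.8 and 67.2, so progesterone 2 and 3 were high and progesterone 1 lay among the silk values. Among 31 copies of immediate early genes, 0 were higher and 1 lower.

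Of 60 growth factor and Wnt signalling copies, 5 were higher and 1 lower, beside 6.25% and 1.68% of all genes, with a median of 0.20. Without silk 3, 12 of 59 were higher and 1 lower, beside 10% and 2.24%, with a median of 0.23 beside 0.17. The neurotrophin gene bdnf.S was at 13.8, 13.7 and 13.1 FPKM with progesterone, listed at 0 in silk 1 and silk 2 and at 6.53 in silk 3 (2.89 ± 1.00, adjusted p = 0.564). These values rested on 8, 6.2 and 7 estimated reads with progesterone and 0, 0 and 3.4 with silk. The 3 libraries without a device were at 12.1, 0 and 6.14 FPKM, a range that holds the silk values and lies below all progesterone values. A second gene model named bdnf.S overlapped between groups, at 16.1, 9.11 and 8.57 FPKM against 19.7, 8.74 and 9.89. The nerve growth factor gene ngf.S was at 1.83, 5.01 and 2.45 FPKM against 1.48, 0 and 0.340, and wnt4.S at 1.26, 8.27 and 3.56 against 1.02, 0.810 and 0.710, with progesterone 2 the highest in each. The member below was smad4.1.S itself.

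Glial, vascular and immune markers had smaller medians than the matrix genes. Their counts stand beside 6.25% of all genes higher and 1.68% lower. The astroglia median was 0.19, with 3 of 24 copies higher and 0 lower. Myelin markers were at the background, with a median of 0.11 beside 0.12 over all genes and 2 of 31 higher, among them cnp.S at 35.5, 29.8 and 36.9 against 20.9, 20.3 and 29.4 FPKM (0.53 ± 0.21, adjusted p = 0.609). For cnp.S the groups did not overlap. Endothelial and mural markers had a median of 0.27, with 3 of 36 higher, led by the smooth muscle genes tagln.L (1.35 ± 0.31) and acta2.S (1.02 ± 0.32) with adjusted p of 0.349 and 0.525. Microglia and myeloid markers had a median of 0.40, with 4 of 20 higher, such as the oxidase gene cybb.L at 4.49, 4.39 and 5.66 against 1.37, 2.71 and 3.87 FPKM (0.73 ± 0.28, adjusted p = 0.592). Without silk 3 the medians of these lists were 0.38 for astroglia, 0.30 for myelin, 0.25 for vessels and 0.62 for myeloid cells, beside 0.17 over all genes. In that fit 4 of 24 astroglia, 4 of 31 myelin, 3 of 36 vessel and 7 of 19 myeloid copies were higher, beside 10%. The vessel list had 1 copy lower and the others 0, beside 2.24%.

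Immune and stress lists gave few members past an unadjusted p of 0.05, beside 6.25% of all genes higher and 1.68% lower. Interferon-induced genes had a median of 0.51, with 23 of 25 copies above 0, beside 65.6% of all genes (67.9% without silk 3), but 0 past that p. Without silk 3 all 25 were above 0, 3 were past that p and the median was 0.61. The MHC class I gene mhc1a.L was at 74.7, 72.8 and 83.7 FPKM against 45.4, 18.04 and 68.4. Of 44 antioxidant copies 3 were higher and 0 lower, led by the heme oxygenase gene hmox1.S at 5.59, 4.22 and 4.90 against 2.01, 1.60 and 2.80 FPKM (0.92 ± 0.24, adjusted p = 0.438). Of 23 inflammatory mediators 2 were higher and 0 lower, led by the NF-kappaB inhibitor gene nfkbie.S at 8.64, 8.70 and 6.46 against 1.69, 3.36 and 3.54 FPKM (1.24 ± 0.26, adjusted p = 0.291). In both leading genes the groups were apart. The libraries without a device were at 77.6, 90.6 and 73.5 FPKM for mhc1a.L, 3.62, 6.53 and 4.12 for hmox1.S and 7.96, 9.05 and 6.94 for nfkbie.S. These values lie above silk and overlap those with progesterone. Heat shock genes were split, with 2 of 46 copies higher and 2 lower.

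Most ribosomal protein genes had small positive differences. Their median was 0.20, with 116 of 133 copies above 0 beside 65.6% of all genes, though 2 were higher and 1, rpl35a.L, lower at an unadjusted p under 0.05. Without silk 3 the median was 0.33 beside 0.17 over all genes, 18 of 133 were higher, beside 10% of all genes, and 61 did not overlap, beside 23%. After median-of-ratios scaling the medians were 0.10 with silk 3 and 0.18 without. The median of the respiratory chain was 0.05, with 1 of 121 higher, cyc1.L at 18.8, 17.99 and 17.9 against 2.09, 6.74 and 12.1 FPKM, and 3 lower, led by cox6c.L at 33.3, 37.5 and 42.9 against 56.2, 52.1 and 57.6. Without silk 3, 7 of the 121 respiratory chain copies were higher and 4 lower, beside 10% and 2.24% of all genes. Glycolysis genes had a median of −0.01 and 1 of 37 lower. In the cell cycle list 3 of 25 copies were higher and 1 lower. The cyclin gene ccnd1.L was at 2.28, 2.36 and 2.27 FPKM with progesterone and at 0, 0 and 0.48 with silk (1.54 ± 0.22, adjusted p = 0.151), and without silk 3 it rose past the threshold (1.72 ± 0.20, adjusted p = 0.0378, 3 of 3 higher). It rested on 5.3, 4.3 and 4.9 estimated reads with progesterone, and the minimum of 10 reads removes it. Without a device it was at 2.14, 2.0 and 3.66 FPKM, like progesterone. Neural progenitor genes had a median of 0.09, with 2 of 50 higher, led by elavl3.L (0.96 ± 0.30, adjusted p = 0.512), and 1 lower.

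**Figure D4:**
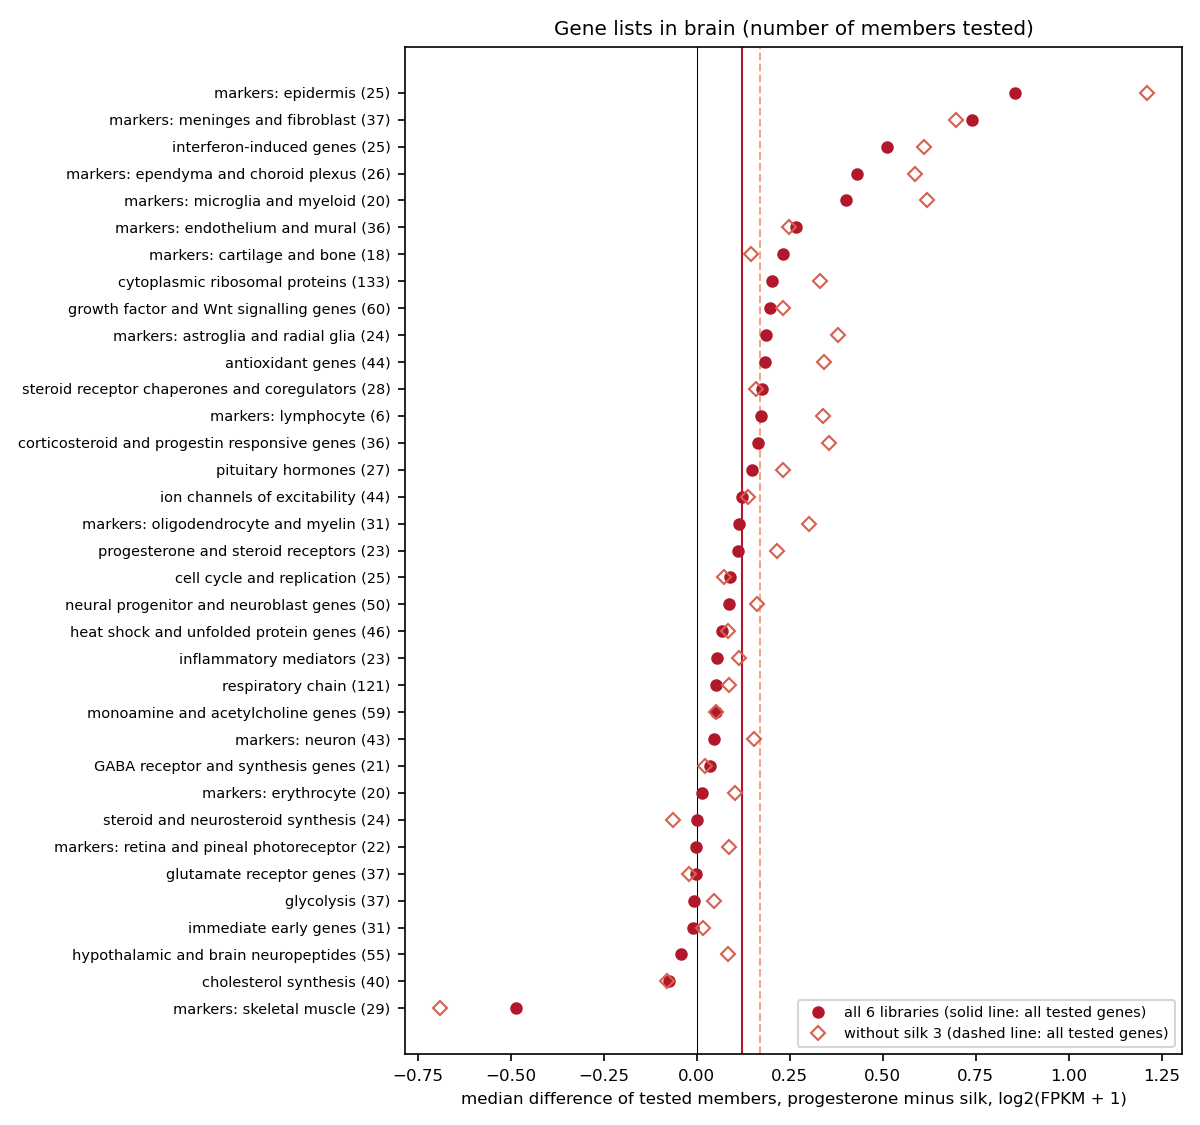
Median difference (progesterone minus silk, log2(FPKM + 1)) of the tested members of 35 gene lists, with the number tested in brackets, for all 6 libraries (filled circles) and without silk 3 (open diamonds). Vertical lines mark the medians over all tested genes, 0.12 and 0.17, and the epidermis list at 0.86 and the meninges and fibroblast list at 0.74 lie farthest above them.

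A set of genes was very high in progesterone 2 and 3 alone. It was defined after the values were seen, as genes whose level in both libraries was at least 4 times the sum of 1 FPKM and the highest of the other 7 brain libraries, and holds 32 genes, 21 of them with a symbol, so it gets no test. The prostaglandin D synthase gene ptgds.L, a product of choroid plexus and meninges in mammals, was at 14.9, 3151 and 1935 FPKM in progesterone 1 to 3, 13.96, 21.8 and 130.3 in silk 1 to 3 and 111, 12.9 and 120.4 without a device. The gene darmin.L, for a peptidase first described in Xenopus endoderm, was at 2.68, 2642 and 1539 FPKM with progesterone against 1.93, 4.59 and 75.4 with silk. In both genes progesterone 1 was as low as silk 1, and silk 3 was higher than silk 1 and silk 2.

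The members named here are of mixed kinds, and 1 of the 32, kl.S, belongs to the list of ependyma and choroid plexus, the lining of the ventricles and the epithelium that makes cerebrospinal fluid. The skin gland peptide gene pgla.L was at 0, 143 and 79.03 FPKM with progesterone, and the lens crystallin gene crygbl.5.S at 0, 5.15 and 4.32. The bicarbonate transporter gene slc4a4.S was at 1.48, 45.3 and 28.8 FPKM with progesterone against 0.790, 1.40 and 1.43 with silk, and the carbonic anhydrase gene ca2.S at 6.37, 101 and 57.9 and 4.25, 3.37 and 7.68. The Klotho gene kl.S was at 0.270, 17.2 and 9.81 FPKM and 0.710, 0.590 and 0.150, and the anion transporter gene slc26a9.S at 0.790, 24.9 and 15.2 and 0, 0.290 and 0.380. In each of these genes progesterone 1 was at or near the silk level. Outside the set by its definition, the autotaxin gene enpp2.L was at 41.7, 211 and 148 against 29.4, 54.5 and 68.7 FPKM and the chloride channel gene clic6.L at 0.180, 14.9 and 8.28 against 0, 0.480 and 1.20.

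Of the ependyma and choroid plexus list, 5 of 26 tested copies were higher at an unadjusted p under 0.05 and 0 lower. Over all genes 6.25% were higher and 1.68% lower. The median of the list was 0.43. Without silk 3, 3 of 25 were higher, beside 10% of all genes, and 0 lower. The summed level was 125, 478 and 345 FPKM with progesterone, 105, 139 and 174 with silk, and 113 to 179 without a device. The 31 copies include none at 0 in all 6 libraries. Among them the cilium gene pifo.S was higher in all 3 progesterone libraries, at 1.90, 1.82 and 2.04 FPKM against 0, 0 and 0.530 (1.34 ± 0.25, adjusted p = 0.255). It rested on 3.9, 2.9 and 3.9 estimated reads with progesterone and 0, 0 and 1 with silk. These are too few to set it apart from the pattern of progesterone 2 and 3. The other cilium genes ccdc39.L (0.60 ± 0.22) and tekt2.S, at 6.65, 8.06 and 12.6 against 9.65, 4.99 and 13.8 FPKM, differed less or overlapped.

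The authors' deposited table lists 35 genes with a q-value under 0.05 (0.094% of 37231), 31 of them higher and 4 lower with progesterone. Of these 35, 15 belong to the set of progesterone 2 and 3, which is 42.9% of the authors' genes and 46.9% of that set. In 13 of the 31 higher genes progesterone 1 was below the highest silk library, and in 18 the groups did not overlap. Among the latter are the keratin gene krt61.S at 6.78, 6.80 and 7.61 FPKM against 0, 0 and 0.440, and cyp26b1.S, for an enzyme that degrades retinoic acid, at 3.60, 2.95 and 3.97 against 0.410, 0.320 and 1.14, with q-values of 0.0127 and 0.0377. The natriuretic peptide receptor gene npr3.L shows the other kind, at 5.13, 41.2 and 27.9 against 6.89, 3.65 and 5.59 FPKM with a q-value of 0.0338 in the authors' deposited table. Limma tested 27 of the 35 genes, as the others did not reach 1 FPKM in 3 samples, and called 1.

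**Figure D5:**
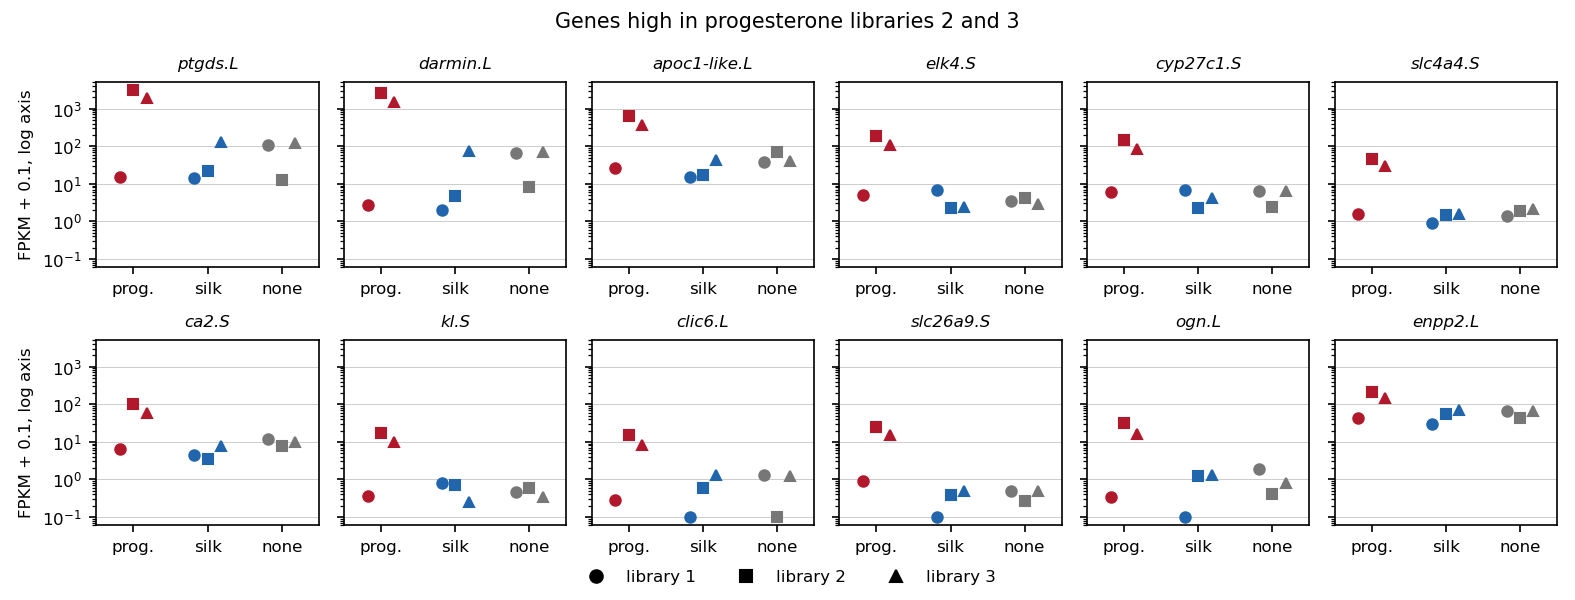
FPKM + 0.1 on a log axis for 12 genes, 10 of them in the set defined by progesterone 2 and 3 together with clic6.L and enpp2.L, in the progesterone (prog., red), silk (blue) and no-device (none, grey) brain libraries, 1 point per library. Progesterone 2 (square) and 3 (triangle) stand above all other libraries in each panel, while progesterone 1 (circle) lies at or near the level of the silk and no-device libraries.

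Whether the brain differed from the limb in its response was tested with the difference of the effects. For brain minus blastema 0 of 36987 genes passed limma's adjusted threshold, with 2031 at an unadjusted p under 0.05, and for brain minus stump 0 passed, with 889. Depth differed, at 623389 to 2053232 estimated reads in the 6 brain libraries and 172979 to 1657673 in the limb libraries with a device, and near-identical libraries of a group were averaged in these fits. For col6a1.L the difference of the effects was 1.41 against blastema and 1.35 against stump, and for tf.S 1.07 and 1.35 (adjusted p = 0.956, 1.0, 0.972 and 1.0). Without the merged blastema progesterone sample 624 genes passed in the first of these comparisons, but that arm is then 1 library of 172979 reads, assumed to vary like the other groups.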

How the data were processed

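RNA of 27 libraries was sequenced, per the labels' protocols after ribosomal RNA depletion of 1 µg of total RNA, with 10 amplification cycles and 40 nt reads. Per the submitters' processing notes the tools were edgeR, RSEM, STAR, Trimmomatic and FastQC, without versions. Build, annotation and strandedness are not given in the sources. Near-identical gene copies can share such short reads, so their values are uncertain.

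The table of brain silk against progesterone was used. Its library values, whose unit no header states, are taken as FPKM made by the authors, because the product of value and estimated length adds up to 1 common total across brain libraries (0.9975 to 1.0029 relative to their mean). Per the file headers it also holds the authors' p-values and q-values, a log2 fold change by the authors, and group means of a deposited signal called average CPM. Of 37231 genes, 8821 have no name. By their identifier, 2966 placeholder names were given a RefSeq symbol, after which 6576 genes still had only a placeholder. For 6 printed symbols a second tested gene model carries the same symbol; the model that the naming rule picked is described, with the other beside it. The study's samples were grouped by tissue and treatment labels.

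Gene length and reads were estimated from FPKM and the deposited means. Only 43.3% to 59.4% of low values came within 0.1 of a whole number of reads, which is too few to recover counts. The plan named a count test for counts and limma for FPKM. Limma (version 3.58.1, R version 4.3.3) was thus applied to log2(FPKM + 1). This scale understates the change of low genes. The fit held the brain libraries, with 2 near-identical no-device libraries averaged, and genes at 1 FPKM or more in at least 3 samples, with Benjamini-Hochberg adjustment over all tested genes. It was tested on simulated data. Pairs of libraries were compared by chi-square tests of estimated reads in genes with at least 20, and pairs that differed at under 1% of genes were called near-identical. Intervals are 95%.

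The comparison and the 35 lists were chosen with earlier results of these data known. Of the 1042 symbols in the lists, 916 (87.9%) were found. They are described by counts and medians beside all tested genes. Named genes are, per direction, up to 12 with a symbol and a mean of at least 5 FPKM, called genes first and then those whose groups do not overlap by smallest p, the 4 members of each list with the smallest p, the progesterone and corticosteroid receptors, smad4.1.S, and up to 6 per direction without silk 3. The genes col3a1.L, col1a2.L, fbln1.L, foxc2.L, dcn.L, pdgfra.L, krt19.L, krt8.L, krt5.7.S, tp63.L, krt14.L, col17a1.L, col17a1.S, paqr8.S, tekt2.S, krt61.S, cyp26b1.S, npr3.L and those given for progesterone 2 and 3 fall outside this rule and were chosen after their values were seen. A few genes that the rule picks are not reported here. Alternatives were pseudocounts of 0.1 and 5, other filters, scalings, fits and left-out libraries.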

Additional observations from a re-analysis of the deposited data

How the results depend on the processing

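With all 3 silk libraries, the count of called genes (6) was 62 with a pseudocount of 0.1, 0 with 5 (2138 genes at an unadjusted p under 0.05), 2 with a mean of at least 5 FPKM, 13 with the 6 device libraries alone, 3 with a trended robust fit, 2 with limma-voom on estimated reads and 1 with a mean of at least 10 estimated reads. By voom tf.S was called. Leaving out 1 library gave 0 to 72. Without silk 3 the count (72) was 340, 19, 45, 10 and 38 under the pseudocounts of 0.1 and 5, the mean of at least 5 FPKM, voom and the minimum of reads, and 0 to 154 with a further library left out, both ends with 1 silk library left. The minimum of reads and the combinations without silk 3 were chosen after seeing the data. With the replicate number as a block, in the 6 device libraries alone, limma called 0 genes (1822 at an unadjusted p under 0.05), and 0 without silk 3 (1686). The deviations of same-numbered libraries from their group means correlated at 0.00923, −0.0563 and 0.0477. This gave no sign that the numbers pair them, but 3 libraries per group with 2 shallow ones cannot exclude it. Called members of the 35 lists (0) numbered 0 to 4 with 1 library left out. Brain minus blastema gave 30 genes with a pseudocount of 0.1 and 0 to 624 with 1 library left out, and brain minus stump 4 and 0 to 7. The smad4.1.S difference ranged from −10.18 to −4.83 percentage points with 1 library left out. The 60 printed gene differences kept their sign in the 1048 gene and setting pairs that gave a value, over 18 alternatives whose filters removed some genes. Many of the 60 were picked for groups without overlap or a small p, which favours a kept sign, so this is no independent check. Of 629 list medians 29 moved by more than the spread between libraries. For lymphocyte markers no median could be given at a mean of at least 5 FPKM. The causes were not tested. Genes at few estimated reads in silk 1 and silk 2 are limited by their depth.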

Other observations

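The pituitary hormone genes varied between brain libraries, and not by group. The prolactin gene prl.1.L was at 454, 50.96 and 236 FPKM in progesterone 1 to 3, 1.79, 1054 and 88.00000 in silk 1 to 3 and 86.6, 1206 and 77.1 without a device, so silk 1 was almost without it and silk 2 and the second no-device library were the highest. The pro-opiomelanocortin gene pomc.L, for the precursor of ACTH and melanocyte-stimulating hormone, was at 49.4, 62.1 and 64.7, 8.13, 149 and 29.3 and 29.9, 152 and 39.8 FPKM in the same order, and the common glycoprotein hormone chain gene cga.S at 76.8, 5.47 and 39.6, 3.96, 335 and 27.7 and 24.1, 272 and 41.1. The summed level of the 30 pituitary copies was 303 to 1312 FPKM with progesterone, 77.2 to 3137 with silk and 431 to 3517 without a device. Of 27 tested copies 1 was higher and 0 lower at an unadjusted p under 0.05.

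Skeletal muscle genes had their highest summed level in silk 1. The gene for muscle creatine kinase, ckm.S, was at 35.2, 1.20 and 1.17 FPKM in silk 1 to 3 and 1.11, 3.74 and 2.61 with progesterone, and the myosin light chain gene myl1.S at 38.7, 1.38 and 2.03 and 1.61, 2.59 and 2.80. The summed level of the 59 muscle copies was 615 FPKM in silk 1 and 173 to 248 in the other 5 device libraries. Interferon-induced genes were high in the second library without a device, where mx1 and ifit5.L stood at 148 and 132 FPKM, beside 2.31, 8.86 and 5.51 with progesterone and 0, 1.79 and 1.68 with silk for mx1. These genes were chosen after their values were seen, and none of these patterns was tested.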
